A study of Rattus norvegicus with 10 samples.

Results

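Gene expression at 60 min after chemical long-term potentiation (cLTP) was set against the 5 and 10 min times pooled as one stimulated early group, in cultured hippocampal neurons of the rat. The comparison used 6 of the 10 samples of the series, chosen by their labelled time alone, and covered all 11615 genes of the deposited table. The 60 min group held 2 libraries, and the early group held 4, made of 2 at 5 min and 2 at 10 min. All 6 came from Wistar rat cultures at day 15 in vitro that had received the cLTP solution, and the labels name no genetic change. Glial growth had been suppressed on day 4 with fluorodeoxyuridine and uridine. RNA was depleted of ribosomal RNA and selected for poly(A) in 3 rounds. No mock-treated library entered, so a difference is one between later and earlier times after the stimulus, and the time since the solution was applied cannot be told apart from the time since handling. The labels call the 2 samples of each time biological repeats. Levels are given as CPM, the reads of a gene scaled to a common library total, after scaling by trimmed-mean (TMM) factors.

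Strong synaptic input raises calcium in a neuron and activates kinases that reach the nucleus. There, factors already present in the cell, such as CREB at the cyclic AMP response element (CRE) and SRF at the CArG box, switch on immediate-early genes without new protein synthesis. Many of these genes encode transcription factors of the FOS, JUN, EGR and NR4A families, which in turn act on later genes, while others encode brakes on kinases, cytokine receptors and NF-kB, or proteins that act at synapses. Glial cells in such cultures carry an immediate-early response of their own.

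Promoter sequences of 5 of the 24 largest rises are shown because they hold matches to a CRE, AP-1 or NF-kB motif. They do not stand for the whole set: of the 18 genes among the 24 that matched a RefSeq promoter, 12 held a CRE, CArG box, AP-1 or NF-kB match and 6 held none. The sequences span 250 bases before to 50 bases after the start of the gene in RefSeq (assembly GRCr8), 5′ to 3′ on the strand of the gene, with the matches to these 4 motifs in capitals. Matches to the short CRE core (TGACG), the EGR site and the TATA box were also counted and are left in lower case, among them an EGR site in Maff and CRE cores in Nrarp and Cxcl1. Those of Tfpi2 (chr4:32941227-32941526, minus strand) and Cxcl10 (chr14:15988816-15989115, plus strand) hold an AP-1 site, the motif bound by FOS and JUN dimers, and 1 or more NF-kB sites. That of Maff (chr7:112792537-112792836, plus strand) holds a full CRE from 51 to 44 bases before the start. Cxcl1 (chr14:17479272-17479571, minus strand) has an NF-kB site matched on both strands at 84 to 74 bases before the start, and Nrarp (chr3:28390495-28390794, plus strand) has 1 from 216 to 207 bases before it.
Tfpi2: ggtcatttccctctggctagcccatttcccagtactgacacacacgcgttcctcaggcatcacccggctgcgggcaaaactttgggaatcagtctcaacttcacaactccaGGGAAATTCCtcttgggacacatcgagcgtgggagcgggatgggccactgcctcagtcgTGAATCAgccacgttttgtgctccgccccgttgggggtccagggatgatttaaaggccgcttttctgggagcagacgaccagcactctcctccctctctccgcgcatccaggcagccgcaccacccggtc
Cxcl10: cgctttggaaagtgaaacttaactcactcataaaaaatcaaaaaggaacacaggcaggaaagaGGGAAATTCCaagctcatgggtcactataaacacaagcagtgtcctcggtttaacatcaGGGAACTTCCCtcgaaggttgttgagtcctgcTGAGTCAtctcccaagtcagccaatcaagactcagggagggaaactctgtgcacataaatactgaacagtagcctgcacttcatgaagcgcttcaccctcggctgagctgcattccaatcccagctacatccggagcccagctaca
Maff: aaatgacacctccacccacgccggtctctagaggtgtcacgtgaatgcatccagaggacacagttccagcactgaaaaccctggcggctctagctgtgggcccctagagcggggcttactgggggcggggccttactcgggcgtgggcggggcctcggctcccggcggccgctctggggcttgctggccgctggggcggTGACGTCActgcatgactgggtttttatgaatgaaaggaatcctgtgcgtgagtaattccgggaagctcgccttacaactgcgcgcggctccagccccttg
Cxcl1: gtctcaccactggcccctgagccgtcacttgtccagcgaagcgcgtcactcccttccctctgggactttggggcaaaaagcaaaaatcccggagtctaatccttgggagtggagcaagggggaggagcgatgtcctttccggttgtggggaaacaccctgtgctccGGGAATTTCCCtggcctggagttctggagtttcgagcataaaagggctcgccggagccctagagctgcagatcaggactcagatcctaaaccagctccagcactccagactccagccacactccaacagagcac
Nrarp: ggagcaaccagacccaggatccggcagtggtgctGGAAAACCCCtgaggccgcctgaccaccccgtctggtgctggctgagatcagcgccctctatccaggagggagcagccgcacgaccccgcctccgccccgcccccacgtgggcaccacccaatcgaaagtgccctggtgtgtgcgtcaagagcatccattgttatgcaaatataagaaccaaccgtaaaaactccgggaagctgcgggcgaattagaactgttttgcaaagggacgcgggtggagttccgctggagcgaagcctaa

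At 60 min, 402 genes were higher than in the pooled early group and 143 were lower, and the rises were much the larger. A gene was called at an adjusted p under 0.05 in limma over all genes. Among the rises 206 reached 1.5-fold, 117 reached 2-fold, 55 reached 4-fold, 17 reached 8-fold and 4 reached 16-fold. Among the falls 13 reached 1.5-fold and 0 reached 2-fold. The median log2 difference was 0.61 among the rises and -0.39 among the falls, beside 0.00 over all genes. The called share was 3.46% for rises and 1.23% for falls. All 402 rises lay above, and all 143 falls below, each of the 4 early libraries, where 12.6% of all genes had both 60 min libraries above and 13.5% had both below the early group. The calls rest on the same libraries, so this separation adds no separate support to them.

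Worked back from the steps between CPM values, and not read from a count table, the 6 libraries held between 32961534 and 54040657 reads. The first principal component, with 66.53% of the variance, put the 60 min libraries at -18.985 and -19.185 and the early libraries between 6.731 and 13.308. On the second component, with 18.96% of the variance, 5 min replicate 2 stood apart at 13.424 from the other early libraries, which lay between -9.6319 and -0.3008. Between the 2 replicates of a time, log2 values differed with an SD over genes of 0.113 at 60 min, 0.164 at 5 min and 0.124 at 10 min. The counts moved with single libraries: 247 rises and 30 falls were called without 60 min replicate 1, and 255 and 37 without 60 min replicate 2. Falls numbered 88 without 5 min replicate 1, 93 without 10 min replicate 2 and 252 without 5 min replicate 2. Library totals in place of TMM factors gave 345 rises and 195 falls (63.9% of calls higher, against 73.8% with TMM), and upper-quartile factors gave 350 and 213 (62.2% higher).

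**Figure D1:**
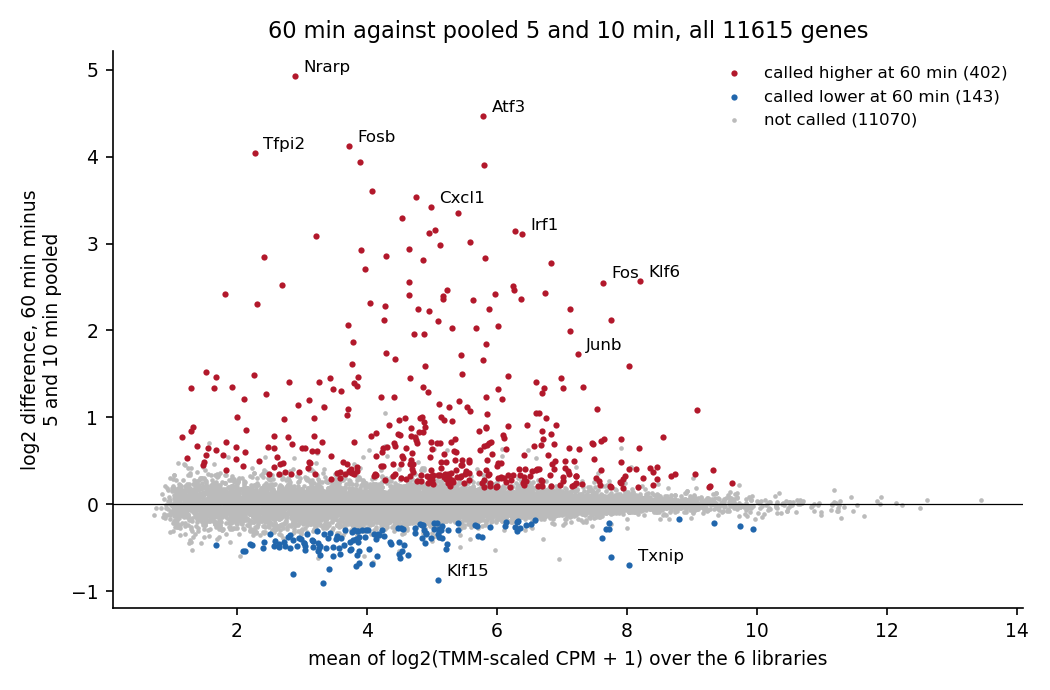
Each point is 1 of the 11615 genes, with the mean of log2(TMM-scaled CPM + 1) over the 6 libraries on the x axis and the log2 difference, 60 min minus pooled 5 and 10 min, on the y axis. The 402 called rises (red) reach 4.93, at Nrarp, while the 143 called falls (blue) stop at -0.90.

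Nrarp, a Notch target whose small ankyrin-repeat product dampens Notch signalling, had the highest log2 difference with a pseudocount of 1 (chromosome 3, 2396143 to 2398691, rn6). Its libraries held 71.2 and 72.3 CPM at 60 min, against 1.41 and 1.13 CPM at 5 min and 1.62 and 1.42 CPM at 10 min. The 2 groups were far apart, and the log2 difference was 4.93 (SE 0.09, adjusted p = 1.4e-09), 30.4-fold on the log2(CPM + 1) scale. That scale understates low genes: the plain ratio of the mean CPM was 51.4 for Nrarp. The order of the rises moves with the pseudocount, and with a pseudocount of 5 the log2 difference of Nrarp (3.59) lay below those of Atf3 (4.22) and Adamts1 (3.68). Atf3, a stress-induced bZIP transcription factor (chromosome 13, 109817893 to 109849632), held 439 and 432 CPM at 60 min, against 18.3 and 17.3 CPM at 5 min and 19.5 and 19.7 CPM at 10 min, a 22.2-fold rise. Tfpi2, a secreted inhibitor of serine proteases, averaged 30.4 ± 2.09 CPM at 60 min and 0.912 ± 0.247 CPM in the early group (SD, n = 2 and n = 4), a 16.5-fold rise. Tfpi2 was thus close to the lowest levels listed before 60 min.

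Gem, a small GTPase that restrains voltage-gated calcium channels, rose 15.4-fold to 90.7 ± 0.157 CPM at 60 min, against 4.98 ± 0.422 CPM in the early group. Adamts1, a secreted metalloprotease, rose 14.9-fold to 338 ± 2.71 CPM, against 21.8 ± 2.62 CPM. Angptl4, a secreted inhibitor of lipoprotein lipase, held 137 CPM in both 60 min libraries and 10.5 to 11.3 CPM in the early ones, an 11.6-fold rise. In all 3 the 60 min replicates lay close together and far from the early group. Regulators of G protein and inositol signalling were also among the 24: Rgs16, which speeds the shut-off of G proteins, rose 8.68-fold, and Itpkc, which phosphorylates inositol trisphosphate, rose 7.91-fold. Ccnl1, a cyclin linked to splicing, rose 8.87-fold to 332 ± 16.4 CPM, against 38.1 ± 11.9 CPM in the early group. In each of the 24 largest rises the smaller 60 min value lay above the highest early value, which the rule for choosing them required.

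**Figure D2:**
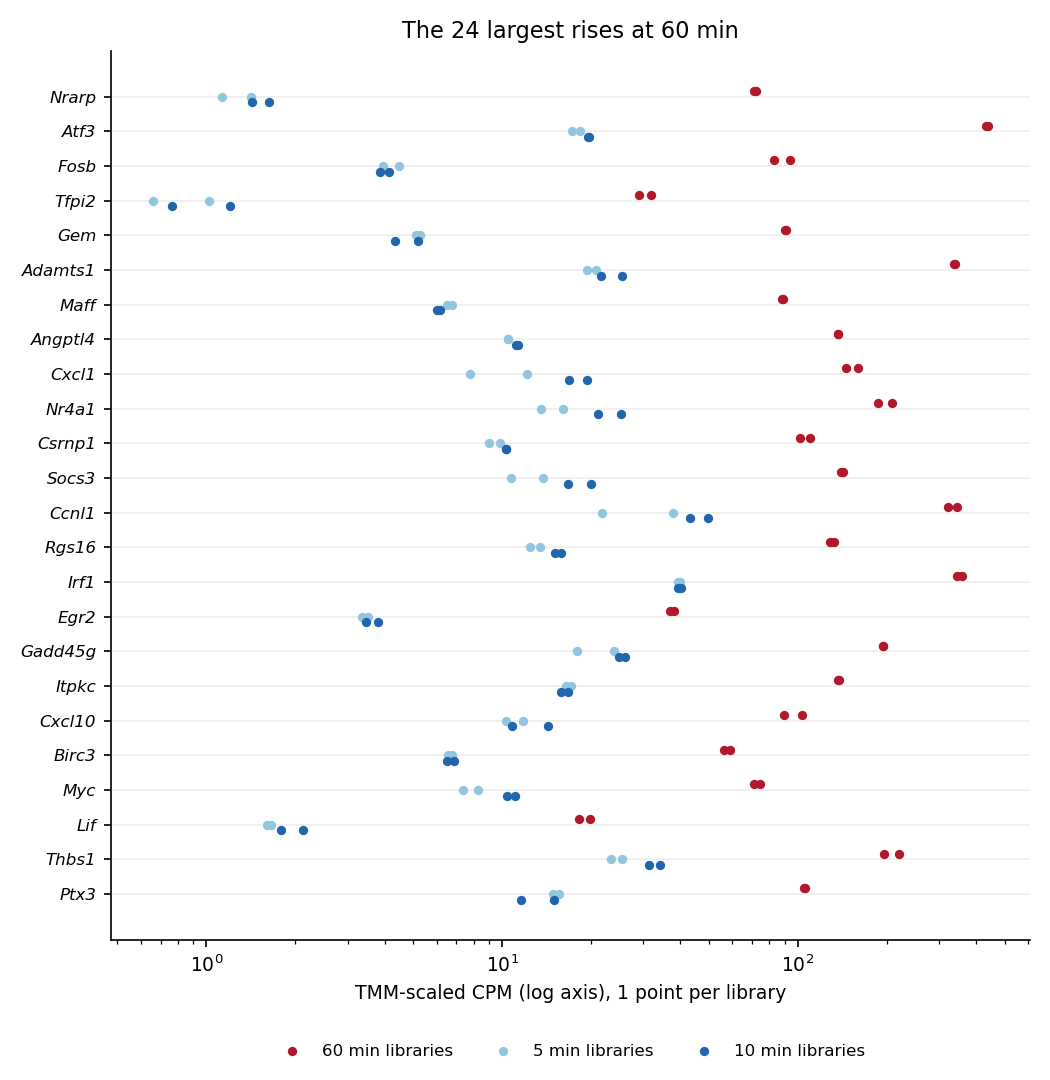
Each row is 1 of the 24 largest rises, ordered by log2 difference, and each point is 1 library at 60 min (red), 5 min (light blue) or 10 min (dark blue), placed by TMM-scaled CPM on a log axis. The 60 min points lie to the right of every early point in all 24 rows, as the rule for choosing them required. In 14 rows, Cxcl1, Nr4a1 and Ccnl1 among them, both 10 min points also lie to the right of both 5 min points. That order was found in 21.5% of all genes.

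FOS, JUN and other bZIP factors mostly rose, in a list that, like those below, was chosen with earlier results of these data known. Lists share members, and Ddit3 is counted both here and among the ATF4 genes. Of 22 measured bZIP members 18 were higher and 0 lower, with a median log2 difference of 1.28. Over all genes 3.46% were called higher and 1.23% lower, the shares to set beside every list below. Fosb (chromosome 1, 80214691 to 80221417), which gives rise to the long-lived product deltaFosB, held 83.1 and 93.8 CPM at 60 min, against 4.48 and 3.97 CPM at 5 min and 4.16 and 3.87 CPM at 10 min. No early library came near the 60 min values, and the rise was 17.5-fold (log2 difference 4.13, SE 0.08, adjusted p = 1.4e-09). Maff, a small MAF protein that has no activation domain of its own and whose CRE is shown above, held 88.6 and 89.1 CPM at 60 min, against 6.01 to 6.79 CPM in the early group, a 12.2-fold rise. Fosl1 rose 6.54-fold to 53.9 ± 0.618 CPM, and Nfil3, a bZIP repressor, 4.68-fold to 85.6 ± 0.143 CPM.

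Fos itself (chromosome 6, 109300433 to 109303299) held 623 and 661 CPM at 60 min, against 98.9 and 70.3 CPM at 5 min and 159 and 126 CPM at 10 min. The 60 min libraries stood well above all others, while the early libraries were spread, with those of 10 min above those of 5 min (log2 difference 2.55, SE 0.25, adjusted p = 0.00016, 5.86-fold). Jun, its partner in AP-1, rose 3.01-fold to 545 ± 10.7 CPM, against 183 ± 35.5 CPM in the early group. Junb rose 3.32-fold to 336 ± 15.1 CPM, against 102 ± 22.0 CPM.

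Of 29 EGR, NR4A, KLF and other immediate-early factors, 22 rose and 1 fell (3.46% and 1.23% over all genes). The median log2 difference was 1.20. Nr4a1 (chromosome 7, 142912309 to 142920215), an orphan nuclear receptor, held 187 and 207 CPM at 60 min, against 16 and 13.5 CPM at 5 min and 25.2 and 21.1 CPM at 10 min. Both 60 min values were far above the early ones, a 10.2-fold rise (log2 difference 3.35, SE 0.20, adjusted p = 3.6e-06). Csrnp1, a nuclear immediate-early protein, rose 9.80-fold to 106 ± 6.01 CPM, against 9.87 ± 0.617 CPM in the early group. Egr2 rose 8.51-fold and Egr1, a zinc-finger factor widely used to mark active neurons, 5.37-fold to 191 ± 13.8 CPM, against 35.0 ± 4.92 CPM. Klf6 rose 5.93-fold and reached 961 ± 22.6 CPM, against 162 ± 15.2 CPM, and Bhlhe40, a basic helix-loop-helix repressor, rose 5.68-fold. Npas4, which in brain is induced by neuronal activity, held 49.2 and 45.5 CPM at 60 min, against 6.39 to 10.5 CPM in the early group, a 4.97-fold rise. The only member that fell was Klf15, described with the falls.

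The genes that rose differed in how their 10 and 5 min levels compared. Of the 24 largest rises, 14 had both 10 min libraries above both 5 min libraries, 1 (Maff) had both below, and in 9 the times overlapped. Irf1, an interferon regulatory factor (chromosome 10, 39109530 to 39116532), held 359 and 344 CPM at 60 min, against 39.3 and 40.0 CPM at 5 min and 39.3 and 40.1 CPM at 10 min. All 4 early libraries lay between 39.3 and 40.1 CPM (log2 difference 10 min minus 5 min 0.00, adjusted p = 0.99), and the rise was 8.66-fold (SE 0.04 on the log2 scale). Birc3, Maff, Itpkc and Angptl4 had 10 min minus 5 min differences between -0.11 and 0.09. For Cxcl1, in contrast, the log2 difference between 10 and 5 min was 0.82 (adjusted p = 0.13), with 19.4 and 16.8 CPM at 10 min, against 12.2 and 7.79 CPM at 5 min. In Cyr61, a secreted matrix protein, that difference was 0.84 (adjusted p = 0.074), in Fos 0.76 (adjusted p = 0.13), in Ccnl1 0.67 (adjusted p = 0.17) and in Nr4a1 0.62 (adjusted p = 0.11). Both 10 min libraries lay above both 5 min libraries in these 5 genes, which are shown for their large differences, and none of the differences passed over all genes. The same order was found in 51 of the 117 rises of at least 2-fold and in 21.5% of all genes. Nfil3 had the opposite order, with 15.8 and 16.2 CPM at 10 min, against 18.5 and 20.0 CPM at 5 min.

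**Figure D3:**
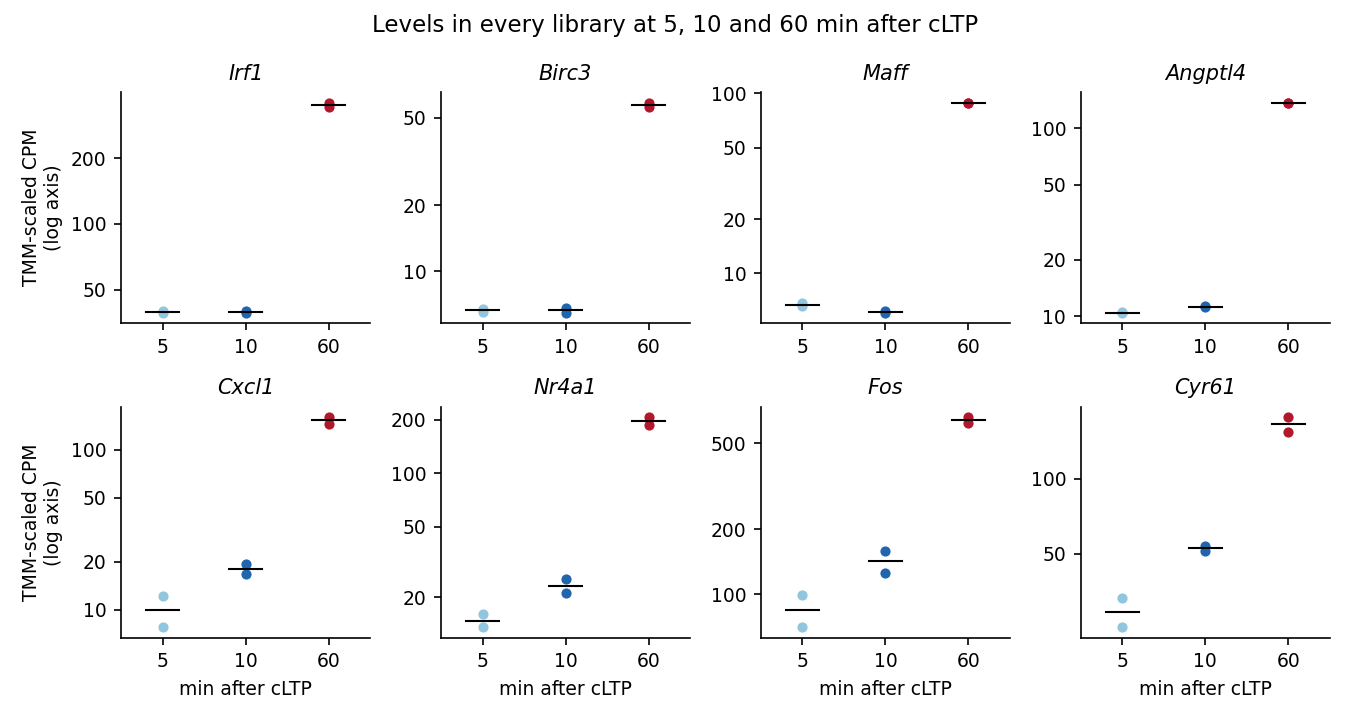
Each panel shows 1 gene with its 2 libraries at 5, 10 and 60 min after cLTP as points and their mean as a bar, in TMM-scaled CPM on a log axis. In the top row the 5 and 10 min levels lie close together before the high 60 min level, as for Irf1 at 39.3 to 40.1 CPM, and in the bottom row the 10 min points lie above the 5 min points, as for Fos at 126 and 159 CPM against 98.9 and 70.3 CPM.

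Tested directly, 10 min against 5 min, 1 gene passed, 0.00861% of those tested, and it was lower at 10 min. This was Bc1, the brain cytoplasmic RNA, a short noncoding RNA found in dendrites (chromosome 1, 218075359 to 218075511). It held 121 and 148 CPM at 10 min, against 245 and 267 CPM at 5 min (log2 difference -0.93, adjusted p = 0.025), and 145 and 167 CPM at 60 min. The 60 min level thus lay near that of 10 min and below that of 5 min, and Bc1 was not called against the pooled group (log2 difference -0.25, adjusted p = 0.73). Its sequence is shared by many ID repeats of the rat genome, so reads may be assigned uncertainly. With limma 0 genes were higher at 10 min, while 1456 had an unadjusted p under 0.05 in either direction. limma-voom also gave 0 higher and 1 lower. The count depended on single libraries: without 5 min replicate 1 there were 695 higher and 62 lower, without 5 min replicate 2 there were 3 and 1, and without 10 min replicate 1 there were 0 and 0. Next after Bc1 by p were Junb (log2 difference 0.53, adjusted p = 0.074), Cyr61, Slfn3, LOC303448 and Jun (0.46, adjusted p = 0.11), all with a positive difference. Slfn3, of the Schlafen family, held 5.98 and 7.77 CPM at 10 min, against 2.79 and 1.36 CPM at 5 min (adjusted p = 0.11).

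Brakes on signalling rose alongside. Of 21 MAP kinase phosphatases and Sprouty-type inhibitors, 11 were higher and 0 lower (3.46% and 1.23% over all genes). Their median log2 difference was 0.31. Trib1, a pseudokinase that directs proteins to degradation, rose 5.89-fold to 80.8 ± 4.30 CPM, against 12.9 ± 1.61 CPM in the early group, and Errfi1, an inhibitor of the EGF receptor, rose 2.53-fold. Dusp10, a phosphatase of stress-activated MAP kinases, rose 2.21-fold, Dusp6, the ERK phosphatase, 1.86-fold and Spry2 1.62-fold. Of 21 other feedback regulators 11 were higher and 3 lower, with a median of 0.34. They include Nrarp and Socs3, which blocks cytokine receptors and rose 8.92-fold to 141 ± 1.57 CPM, against 15.3 ± 3.92 CPM. Pde4b, which breaks down cyclic AMP, held 127 and 132 CPM at 60 min, against 30.4 to 32.1 CPM in the early group, a 4.07-fold rise, and Rcan1, an inhibitor of calcineurin, rose 2.54-fold to 297 ± 3.72 CPM. The NF-kB regulators Nfkbiz and Nfkbie rose 5.27-fold and 3.00-fold. The 3 lower members were Txnip, Axin2 and Arrdc4.

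Factors that shorten the life of mRNA or slow proliferation followed the same direction in 7 of 12 cases, with 1 lower (Tob2, named after its value was seen) and a median log2 difference of 0.61. Over all genes 3.46% were called higher and 1.23% lower. Btg2, an antiproliferative factor, held 302 and 358 CPM at 60 min, against 55.6 and 49.5 CPM at 5 min and 73.3 and 64.9 CPM at 10 min, a 5.39-fold rise. Zc3h12a, a ribonuclease that cuts cytokine mRNA, rose 4.17-fold to 33.0 ± 1.17 CPM, against 7.14 ± 0.133 CPM. Pnrc1, a nuclear receptor coactivator, rose 2.06-fold, Zfp36l1, which binds AU-rich elements, 1.68-fold and Tob1 1.65-fold.

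Among inflammatory and NF-kB target genes, 15 of the 22 measured rose and 0 fell (3.46% and 1.23% over all genes). The median log2 difference was 1.10. Cxcl1, a chemokine that draws neutrophils (chromosome 14, 18743678 to 18745457), held 145 and 160 CPM at 60 min, and its early libraries, given above, reached 19.4 CPM at most. The rise was 10.7-fold (log2 difference 3.42, SE 0.27, adjusted p = 3.2e-05). Cxcl10, a chemokine for T cells, held 103 and 89.4 CPM at 60 min, against 10.3 to 14.3 CPM in the early group, a 7.66-fold rise. Birc3, an inhibitor of apoptosis, rose 7.62-fold to 57.4 ± 1.92 CPM, against 6.66 ± 0.171 CPM. The cytokine gene Lif rose 7.17-fold, Ptx3, a secreted pentraxin, 7.01-fold, and Icam1, an adhesion molecule, 2.73-fold to 246 ± 4.40 CPM. The microglia and macrophage markers summed to 377 and 400 CPM at 60 min, against 366 to 406 CPM in the early group, with 0 of 15 called.

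**Figure D4:**
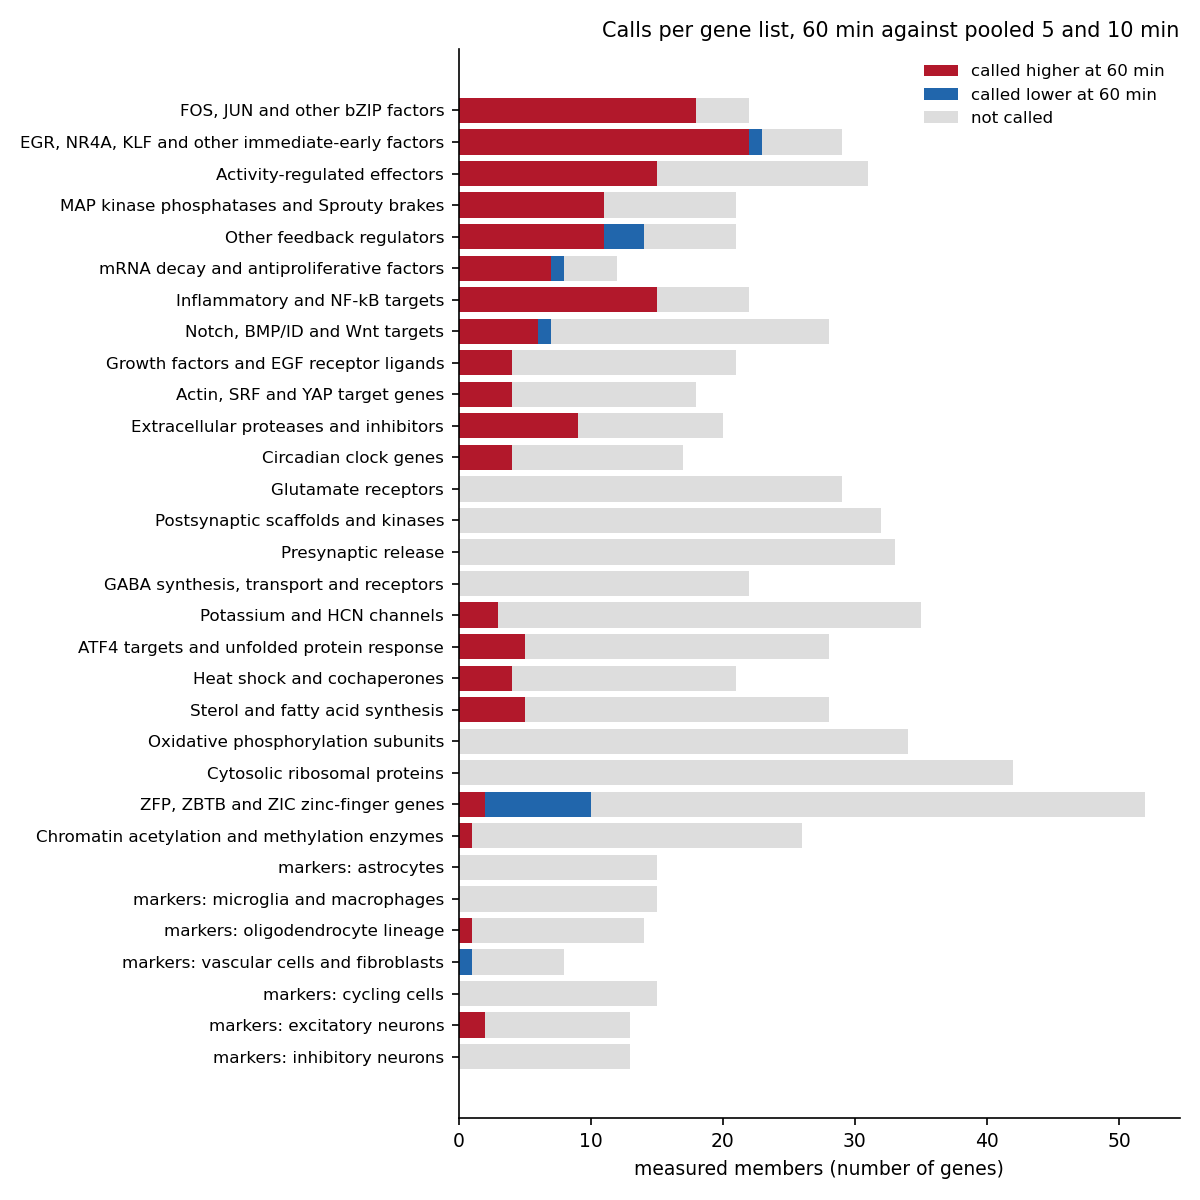
Each bar is 1 of the 31 gene lists, its length is the number of measured members, and its colours give the members called higher (red), called lower (blue) or not called (grey) at 60 min. Red fills most of the bar for the bZIP factors (18 of 22) and the EGR, NR4A and KLF factors (22 of 29), while the bars of glutamate receptors, postsynaptic, presynaptic, GABA, oxidative phosphorylation and ribosomal protein genes are grey throughout. Over all genes 3.46% were called higher and 1.23% lower.

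Genes of the extracellular space were called in part. Of 20 extracellular proteases and inhibitors 9 were higher and 0 lower, against 3.46% and 1.23% over all genes. Besides Adamts1 and Tfpi2, Plau, the urokinase-type plasminogen activator, rose 2.66-fold and Timp1, an inhibitor of metalloproteases, 1.88-fold. Protease and inhibitor were thus both among the rises. Of 21 growth factors and EGF receptor ligands 4 rose: Angptl4, Hbegf, a membrane-bound ligand of the EGF receptor (2.55-fold, to 53.2 ± 1.39 CPM), Gdf15 (1.88-fold) and Fgf2 (1.33-fold). The call of Fgf2 was lost without 60 min replicate 1 (adjusted p = 0.082). Of 18 actin, SRF and YAP target genes 4 rose, namely Thbs1, a matrix protein that astrocytes secrete (7.13-fold, to 208 ± 17.3 CPM, against 28.6 ± 5.02 CPM), Cyr61 (4.16-fold), Srf (1.39-fold) and Zyx, a focal adhesion protein (1.36-fold). Srf missed the threshold without 60 min replicate 1 (adjusted p = 0.091).

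Of 28 Notch, BMP and Wnt pathway targets 6 rose and 1 fell (3.46% and 1.23% over all genes). The median log2 difference was 0.04. Hes1, a repressor and direct Notch target, held 20.3 and 21.0 CPM at 60 min, against 8.59 to 9.55 CPM in the early group, a 2.13-fold rise. Bmp2, a secreted ligand, rose 2.66-fold to 12.3 ± 0.980 CPM. The Wnt receptor gene Fzd1 rose 1.41-fold and Id2 1.38-fold. Id2 and Id3 both encode inhibitors of basic helix-loop-helix factors, and they went opposite ways, since Id3 was the member that fell.

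Among effector genes known to be regulated by neuronal activity, 15 of the 31 measured rose and 0 fell (3.46% and 1.23% over all genes). The median log2 difference was 0.25. Gem and Gadd45g (8.13-fold, to 194 ± 0.471 CPM, against 23.2 ± 3.61 CPM) led. Gadd45b, which like Gadd45g acts in stress responses and DNA demethylation, rose 5.31-fold, Gadd45a 2.79-fold and Sik1, a kinase that restrains CREB coactivators, 4.85-fold. Arc (chromosome 7, 115907097 to 115910541), which promotes removal of AMPA receptors from synapses, held 80.5 and 74.8 CPM at 60 min, against 33.0 and 33.5 CPM at 5 min and 38.1 and 42.0 CPM at 10 min. Its groups did not overlap, and the rise was 2.1-fold (log2 difference 1.07, SE 0.09, adjusted p = 6.8e-05).

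Other well-known effectors did not pass. Bdnf, the brain-derived neurotrophic factor, held 129 and 122 CPM at 60 min, against 132 and 135 CPM at 5 min and 105 and 112 CPM at 10 min (log2 difference 0.07, SE 0.10, adjusted p = 0.80). Its 60 min libraries lay between those of the earlier times. Homer1, a postsynaptic scaffold, averaged 89.8 ± 7.95 CPM at 60 min and 93.8 ± 6.51 CPM in the early group (adjusted p = 0.74). Nptx2, a pentraxin that clusters AMPA receptors, averaged 38.2 ± 4.44 CPM and 32.3 ± 3.00 CPM (adjusted p = 0.26). Gene-level values do not separate the short, activity-induced form of Homer1 or the promoters of Bdnf.

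Structural genes of the synapse showed no call with limma. The threshold was passed in either direction by 0 of 29 glutamate receptor genes, 0 of 32 postsynaptic, 0 of 33 presynaptic and 0 of 22 GABA genes, with medians from 0.04 to 0.08. Over all genes 3.46% were called higher and 1.23% lower, so lists of this size would hold few calls at that share. Both 60 min libraries lay above all 4 early libraries in 8, 7, 8 and 5 of these members, against 12.6% of all genes. Both lay below in 1, 0, 0 and 0, against 13.5%. This order was not tested. Among those closest to the threshold were the synaptic adhesion gene LRRTM1 (70.1 ± 0.208 CPM at 60 min and 62.6 ± 1.81 CPM in the early group, adjusted p = 0.10) and the vesicular GABA transporter gene Slc32a1 (116 ± 1.67 and 103 ± 3.64 CPM, adjusted p = 0.10). Among 35 potassium and HCN channel genes 3 rose. Kcnj2, an inward rectifier that holds the resting potential, rose 2.00-fold to 5.36 ± 0.476 CPM, against 2.19 ± 0.389 CPM. Kcnb2 and Kcnc1 rose 1.29-fold and 1.28-fold. Kcnb2 missed the threshold without 60 min replicate 1 or 2, 5 min replicate 1 or 10 min replicate 2, and Kcnc1 without any library but 5 min replicate 2, with adjusted p up to 0.30 and 0.43.

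Stress and metabolic programmes were represented by few members. Of 28 ATF4 and unfolded protein response genes 5 rose, against 3.46% over all genes, and the median was 0.02. Ppp1r15a, which restores translation after stress, rose 5.13-fold to 245 ± 1.97 CPM, against 47.2 ± 6.0 CPM, and the other 4 (Slc7a5, Atf4, Chac1 and Ddit3) rose 1.19-fold to 1.38-fold. Each of those 4 missed the threshold without 60 min replicate 2, Atf4, Chac1 and Ddit3 also without 60 min replicate 1, and Chac1 and Ddit3 without 5 min replicate 1 or either 10 min library. Of 21 heat shock genes 4 rose, by 1.23-fold to 1.42-fold: the small heat shock gene Hspb8, Dnajb1, Bag3 and Hspa1b. Hspa1b has a near-identical copy, so its reads are uncertain. Dnajb1 was not called without 60 min replicate 1, Bag3 without 60 min replicate 2, and Hspa1b without 60 min replicate 1 or 5 min replicate 1.

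Of 28 sterol and fatty acid genes 5 rose, where 3.46% of all genes were called higher and 1.23% lower. Insig1, which retains the sterol sensor in the endoplasmic reticulum, rose 1.68-fold to 282 ± 8.60 CPM. Srebf1 and Idi1 rose by 0.33 and 0.32 on the log2 scale, and each missed the threshold without either 60 min library, Idi1 also without 10 min replicate 2. Of 17 circadian clock genes 4 rose, namely Bhlhe40, Per1 (2.66-fold, to 185 ± 6.19 CPM, against 69.3 ± 6.99 CPM), Cry2 (1.42-fold) and Ciart (1.41-fold, not called without 60 min replicate 1). Of 26 chromatin acetylation and methylation enzymes the histone demethylase gene Kdm6b alone rose, 4.35-fold to 50.03 ± 0.317 CPM, against 10.8 ± 1.39 CPM. Subunits of oxidative phosphorylation (0 of 34, median -0.05) and cytosolic ribosomal proteins (0 of 42, median -0.06) held no call. At the share over all genes, lists of this size would hold few calls.

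Falls were shallow. Those named below include regulators of transcription, whose share among all falls was not counted. The deepest was that of Zc2hc1c, which held 5.63 and 5.59 CPM at 60 min, against 11 to 12.2 CPM in the early group (log2 difference -0.90, SE 0.07, adjusted p = 3.7e-05). Klf15, a Krüppel-like factor induced by glucocorticoids (chromosome 4, 122365093 to 122377688), held 21.8 CPM in both 60 min libraries, against 41.5 and 39.3 CPM at 5 min and 39.6 and 42.1 CPM at 10 min. Its groups were separate with little spread inside each (log2 difference -0.87, SE 0.05, adjusted p = 5.5e-06). Txnip, which binds thioredoxin and limits glucose uptake (chromosome 2, 198683168 to 198686968), held 187 and 190 CPM at 60 min, against 336 and 322 CPM at 5 min and 286 and 288 CPM at 10 min (log2 difference -0.70, SE 0.07, adjusted p = 0.00014). Within the early group its 10 min libraries were the lower ones (log2 difference 10 min minus 5 min -0.20, adjusted p = 0.16).

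Id3 (chromosome 5, 154489603 to 154491172) held 164 and 161 CPM at 60 min, against 228 to 267 CPM in the early group, a fall of 0.60 on the log2 scale. Axin2, a negative feedback gene of Wnt signalling, averaged 18.0 ± 0.490 CPM at 60 min and 27.5 ± 2.39 CPM in the early group (log2 difference -0.58, adjusted p = 0.0019). Pou3f2, a POU-domain factor of neural cells, averaged 12.5 ± 1.31 and 19.4 ± 0.971 CPM (-0.60), and Bbs10, a chaperonin-like gene of ciliary protein assembly, 11.3 ± 0.0366 and 18.8 ± 1.07 CPM (-0.69).

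The 16 largest falls held Zic5, Rbak and 5 zinc-finger genes named Zfp with a number. Of the 52 measured members of the ZFP, ZBTB and ZIC list 8 fell and 2 rose, with a median log2 difference of -0.05. Over all genes 1.23% were called lower and 3.46% higher. Zfp112 and Zfp111, which lie near each other on chromosome 1 at 80944234 to 80959072 and 81035711 to 81046934, fell by 0.80 and 0.71 on the log2 scale. Zfp112 averaged 4.00 ± 0.0768 CPM at 60 min and 7.72 ± 0.527 CPM in the early group, and Zfp111 averaged 9.27 ± 0.170 and 15.9 ± 1.32 CPM. Zic5, a factor of neural progenitors, averaged 6.53 ± 0.401 and 11.7 ± 1.28 CPM (log2 difference -0.75). Related zinc-finger genes share sequence, so reads may be split among them. Zfp641 missed the threshold without 60 min replicate 1, 5 min replicate 1 or 10 min replicate 2, Rbak without 60 min replicate 2, and Zfp709, a smaller fall of the list, without 60 min replicate 1. The rise of Zfp46 (1.20-fold) was not called without either 60 min library.

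**Figure D5:**
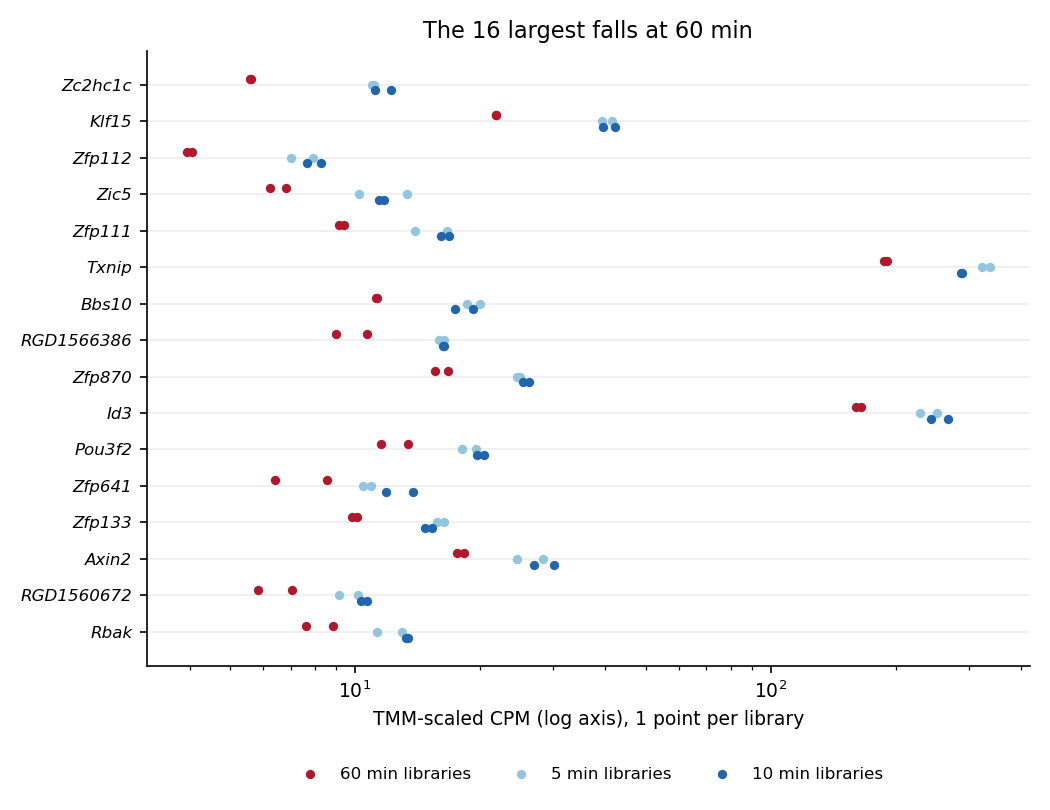
Each row is 1 of the 16 largest falls, ordered by log2 difference, and each point is 1 library at 60 min (red), 5 min (light blue) or 10 min (dark blue), placed by TMM-scaled CPM on a log axis. The 60 min points lie to the left of every early point in all 16 rows, as the rule for choosing them required. Klf15, for example, lies at 21.8 CPM against 39.3 to 42.1 CPM.

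The cultures held transcripts of neurons and of glia at all these times. Map2, a dendritic cytoskeleton gene, averaged 874 ± 13.4 CPM at 60 min and 803 ± 100 CPM in the early group, and Gfap, which marks astrocytes, averaged 11446 ± 225 and 11071 ± 363 CPM. Of the marker lists, astrocytes, microglia, cycling cells and inhibitory neurons had 0 calls of 15, 15, 15 and 13. With 3.46% of all genes called higher and 1.23% lower, 0 calls among so few genes says little. Summed CPM was 28160 and 28607 at 60 min against 27352 to 28897 in the early group for astrocytes, 1717 and 1774 against 1637 to 1799 for excitatory neurons, 1281 and 1291 against 1175 to 1283 for inhibitory neurons, 1694 and 1746 against 1690 to 1878 for the oligodendrocyte lineage, and 559 and 577 against 473 to 617 for cycling cells. The sums of these lists thus overlapped between groups, but not those for vascular cells and fibroblasts, with 1997 and 2087 against 2192 to 2591. There 1 of 8 members was called, the collagen gene Col1a1, which held 842 and 879 CPM at 60 min, against 1152 and 1026 CPM at 5 min and 1002 and 1016 CPM at 10 min (log2 difference -0.28, adjusted p = 0.027, not called without either 60 min library). In bulk samples fewer cells of a type and less RNA per cell cannot be told apart. Olig2, a factor of the oligodendrocyte lineage, held 34.5 and 34.2 CPM at 60 min, against 16 to 18.6 CPM in the early group, a 1.96-fold rise with the other 13 members of its list not called. Neurod2 (1.27-fold) and Bcl11b (1.14-fold) rose among 13 excitatory neuron markers, and each missed the threshold without any library but 5 min replicate 2. The part of cell composition in the other results was not tested.

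Genes called in either direction were on the whole shorter on the genome than all genes tested. The span from gene start to gene end in rn6 had a median of 10619.5 bases among rises (quartiles 4281.75 and 27552.2), 6535 bases among rises of at least 2-fold, and 11314 bases among falls (quartiles 5782 and 19355.5), against 22085 bases over all genes (quartiles 9011.5 and 55330). Of the 1571 genes of up to 5000 bases 7.38% were called higher and 1.72% lower. Of the 1999 genes of over 80000 bases 1.00% were called higher and 0.30% lower, and only 2 of them reached a 2-fold rise. Between 5000 and 20000 bases the shares were 3.72% and 2.09%, and between 20000 and 80000 bases 2.93% and 0.695%. The share called higher was thus smaller with every step of span, while that called lower was highest between 5000 and 20000 bases. These are descriptions of the called genes with no test, and span also goes with other properties of a gene.

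Promoters in RefSeq were found for 332 of the 402 rises and 9394 of all 11615 genes. A full CRE (TGACGTCA) was present in 6.93% of the promoters of rises, against 3.27% of all promoters, and an AP-1 site (TGANTCA) in 11.1%, against 4.8%. A CArG box, which is CC and GG around 6 bases of A or T, was present in 2.71%, against 1.17%, an NF-kB site in 14.2%, against 9.74%, an EGR site (GCGNGGGCG) in 12.7%, against 10.1%, and a TATA box (TATAAA) in 13.9%, against 6.49%. The short CRE core (TGACG), which every full CRE also holds, was in 42.5%, against 32.1%. Both strands were searched over the 300 bases, and a match is only a run of letters. For the rises of at least 2-fold (92 of 117 with a promoter) and for the falls (109 of 143) under 80% were matched, so the shares would be void and are not given.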

How the data were processed

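RNA sequencing libraries of 60, 5 and 10 min after cLTP were analysed, 2 per time. Per the submitters' processing notes, the authors' tools included edgeR, HTSeq, bcl2fastq and TopHat2 2.1.0, and the rat genome build was rn6. No source used here gives the annotation or says whether counting used strand, so a gene and an antisense partner cannot be told apart. The authors deposited CPM for 11615 genes, per the file headers, with positions and a gene length. The symbol of 22 genes had been turned into a spreadsheet serial number, and these were tested but not named. The 8 per-library columns of mock samples were not used.

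In each library 100% of values were within 0.01 reads of whole multiples of 1 step. If 1 step is 1 read, which no source used here states, this puts the totals at 32961534 to 54040657 reads, and the lowest listed values at 9 to 20 reads. CPM values were divided by TMM factors, which trimmed 30% of log ratios and 5% of mean levels, and taken as log2(CPM + 1). Every fold change is on that scale unless a plain ratio is named. limma 3.58.1 in R 4.3.3, with an intensity trend, was fitted with 1 mean for 60 min and 1 for the early group (4 residual degrees of freedom), and with a mean per time for 10 against 5 min (3 residual degrees of freedom). All p-values are two-sided and Benjamini-Hochberg adjusted over all genes, and errors are SDs unless named as SE. The labels say biological repeat without naming animals, so p-values measure the spread between these samples. The fit was tested on simulated data. Sequences came from RefSeq tables of GRCr8, and positions of genes from the deposited table. Figures were drawn with matplotlib 3.10.9.

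The comparison and the 31 gene lists (794 symbols, 722 of them matched) were chosen with earlier results of these data known. Named genes were those of 6 kinds: the 24 largest called rises and 16 largest called falls whose groups did not overlap and whose mean log2(CPM + 1) was at least 1, up to 5 called members per list by p, up to 2 members of lists with none called, 8 known activity genes (Bdnf, Nptx2, Homer1, Arc, Fos, Npas4, Egr1 and Nr4a1), the 6 smallest p for 10 against 5 min, and the 2 most and 2 least 10 minus 5 min differences among the 24 rises. This gave 134 genes, a few of which are not reported here. Alternatives covered scaling, pseudocount, a filter, limma-voom, the variance trend, the make-up of the early group, the 120 min libraries, a replicate block and each library left out. Whether replicate numbers pair samples was checked by the correlation, over genes, of replicate 1 minus replicate 2 between times.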

Additional observations from a re-analysis of the deposited data

Results flagged for a closer look

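Of the 134 named genes, 5 (3.73%) had 1 early library far from the other 3, where chance gives about 5% of such groups. They were Gem with 4.348 CPM in 10 min replicate 2, Zc2hc1c with 12.17 CPM in 10 min replicate 1, Gadd45b with 12.14 CPM in 5 min replicate 2, the vesicular GABA transporter gene Slc32a1 with 108.8 CPM in 10 min replicate 1, and Col1a1 with 1152 CPM in 5 min replicate 1. In the called genes among them (all but Slc32a1) the separate library did not reach the 60 min values, which held for all called genes.

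Bc1 was set apart by a tested difference between the 2 early times. The log2 difference of 60 min from 10 min and that of 60 min from 5 min were unequal, and the test of this, which is 10 min against 5 min, gave a log2 difference of -0.9252 (limma, adjusted p = 0.0253). Both 10 min libraries (121 and 148 CPM) lay below both 5 min libraries (245 and 267 CPM).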

How the results depend on the processing

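Of the 109 named genes that were called, 86 kept the call in all 19 alternatives run, 23 lost it in at least 1, and 0 reversed. Of the 25 named genes not called, 6 were called in at least 1. Leaving out each library in turn gave 247 to 472 rises and 30 to 252 falls at 60 min, and 0 to 695 higher and 0 to 62 lower genes for 10 against 5 min. For 10 against 5 min, 6 genes were higher with the 120 min libraries also in the fit, and 0 were lower with no intensity trend. Other settings kept the counts within 1.5 times, between 345 and 456 rises and between 99 and 213 falls.

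With the replicate block 351 rises and 99 falls were called, 348 and 99 of them shared with the fit without it. Replicate differences correlated at -0.140 (60 and 5 min), -0.0794 (60 and 10 min) and 0.189 (5 and 10 min). These values cannot decide whether samples of the same number share a culture preparation, and the labels do not say. The median log2 difference of all genes stayed between -0.0288 and 0.00329 over all settings. With library totals Kcnc1, Neurod2 and Bcl11b were not called. The edgeR and DESeq2 alternatives were not run, since the deposited values are CPM and the reads worked back from them were not accepted as read counts. limma-voom used those read-scale values. With 2 libraries at 60 min the spread of that group rests on 1 difference per gene, pooled with that of the early group.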

Other observations

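Levels at 120 min came from 2 further libraries, which entered 1 alternative fit and not the main comparison. Of the 24 largest rises, 6 had a higher mean at 120 min than at 60 min, 4 were at 120 min less than 2-fold above the early mean, and 14 lay between. Tfpi2 averaged 0.912 CPM in the early group, 30.4 CPM at 60 min and 89.5 CPM at 120 min. Thbs1 averaged 28.6, 208 and 555 CPM in the same order, Ptx3 14.2, 105 and 305 CPM, Hbegf 20.3, 53.2 and 246 CPM, Fosl1 7.44, 53.9 and 129 CPM, and Cxcl10 11.8, 96.4 and 161 CPM. These were still higher at 120 min. Irf1 averaged 39.7 CPM in the early group, 351 CPM at 60 min and 50.9 CPM at 120 min. Socs3 averaged 15.3, 141 and 25 CPM, Nr4a1 19.0, 197 and 29.9 CPM, Nfkbiz 19.8, 109 and 11.9 CPM, and Btg2 60.8, 330 and 45.6 CPM, which were less than 2-fold above, or below, their early level again. Bdnf, not called at 60 min, averaged 121, 126 and 175 CPM, and Nptx2 32.3, 38.2 and 85.4 CPM. Between these levels, Gem averaged 4.98, 90.7 and 49.3 CPM, Fosb 4.12, 88.4 and 61.1 CPM, and Nrarp 1.40, 71.7 and 11.4 CPM. No test was made of these values, which were chosen after they were seen.

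Several rises outside the rule for named genes, also chosen after their values were seen, belong to the same families. The chemokine gene Ccl2 held 424 and 395 CPM at 60 min, against 53.3 to 70.6 CPM in the early group (6.83-fold), the NF-kB inhibitor gene Nfkbia averaged 571 ± 19.4 CPM at 60 min and 132 ± 15.0 CPM in the early group (4.33-fold), Ier2 averaged 146 ± 0.496 and 28.4 ± 6.10 CPM (5.09-fold), and Zfp36, a decay factor for AU-rich mRNA, averaged 165 ± 19.8 and 35.4 ± 12.3 CPM (4.76-fold).

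Genes whose symbol is Zfp and a number, a group noticed only after the falls had been seen, were called lower in 32 of 170 measured cases (18.8%) and higher in 7 (4.12%), with a median log2 difference of -0.08, against 1.23% lower and 3.46% higher over all genes. They made up 22.4% of all falls. Both 60 min libraries lay below the 4 early libraries in 65 of them (38.2%, against 13.5% of all genes). No test was made, and these genes share sequence.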
